A study of Mus musculus with 12 samples.

Results

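The genes described are 8 chemokine receptors other than Ccr2, namely Ccr1, Ccr7, Cxcr3, Cxcr4, Cxcr6, Ackr1, Ackr3 and Ccrl2. They were chosen by name, as the rows of a count table whose Ensembl gene carries one of these symbols. All 8 were found among the 46078 genes of the table, and all 8 were among the 15866 genes that passed the filter on low counts and were tested. RNA sequencing was done on ventrolateral spinal cord white matter of C57Bl6 mice, cut from cryosections by laser capture microdissection. The 4 groups crossed age (young or middle-aged) with injury (naïve or injured). Per the study's methods, young mice were 6 weeks old and middle-aged mice 8 months old. Injured mice had received lysolecithin, a detergent-like lipid that strips myelin from axons, into the ventrolateral white matter 72 h (day 3) earlier, and naïve mice had no lesion. Each group had 3 libraries, called pools here because the design text states pooling of tissue from 5 mice. Variation between single mice was therefore not measured. The sources do not say outright that the pools of a group held different mice, and where they did not, p-values cover technical spread only. The labels name no transgene and no drug treatment.

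Chemokine receptors are G protein-coupled receptors that steer leukocytes along gradients of small secreted proteins, the chemokines. The atypical receptors, to which Ackr1, Ackr3 and Ccrl2 belong, bind ligands without the usual G protein signal and instead transport, remove or present them. In demyelinated white matter, such receptors are carried by microglia and by cells that enter from the blood, as well as by endothelium and glia. In bulk tissue, more cells of a type and more RNA per cell cannot be told apart, and this holds for each comparison given here.

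Sequencing depth was even, at 9834447 to 12807437 counts in a pool. A floor of 3 counts therefore stood at 0.234 to 0.305 CPM in a pool, taken per library total without adjustment. CPM here is the usual library-scaled count, taken per TMM-adjusted library total wherever a level is given. On that scale, 3 counts stood at 0.323 CPM in the third young naïve pool. The tissue label was met by its markers: the summed level of 6 oligodendrocyte genes was between 83722 and 97929 CPM in young naïve pools and between 50942 and 58240 CPM in middle-aged naïve pools, and all 6 genes fell with injury at both ages. Pan-myeloid markers rose with injury, 7 of 7 at both ages, from a summed 79.5 to 176 CPM in naïve pools to 1612 to 2223 CPM in injured pools. Among all genes tested, 28.3% rose and 26.3% fell with injury in young mice. In middle-aged mice, 29.2% rose and 29.3% fell. The second middle-aged naïve pool stood apart from its group, with Pearson's r across genes of 0.937 against the first. The third middle-aged injured pool alone held the hemoglobin gene Hba-a1 at 127 counts, where no other pool had more than 3. Where leaving out one of these pools ended a call or turned the direction of a receptor, the value is given beside the result or with the alternatives at the end.

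The receptor genes lie on 4 chromosomes of the mouse genome GRCm38, here by the GENCODE annotation. Ccr1 (ENSMUSG00000025804) is on the minus strand of chromosome 9 from 123962124 to 123968692, and Ccrl2 (ENSMUSG00000043953) on the same strand and chromosome from 111054486 to 111057519. Cxcr6 (ENSMUSG00000048521), from 123806475 to 123811760 on the plus strand of chromosome 9, lies within Fyco1, a gene of the opposite strand, with 0 shared exon bases. Cxcr4 (ENSMUSG00000045382) is on the minus strand of chromosome 1 from 128588199 to 128592293, and Ackr3 (ENSMUSG00000044337) on the plus strand of that chromosome from 90203980 to 90216751. Ackr1 (ENSMUSG00000037872) runs from 173331886 to 173333750 on the minus strand of chromosome 1. It shares 361 of its 1405 exon bases with Cadm3 on the same strand, so reads there cannot be assigned with certainty. Ccr7 (ENSMUSG00000037944) is on the minus strand of chromosome 11 from 99144196 to 99155077, and Cxcr3 (ENSMUSG00000050232) on the minus strand of chromosome X from 101731535 to 101734269. All are protein coding. Of the 2803 stretches of 31 bases in Ccr1, 17 also occur in Ccr3, which had at most 12 counts in any pool, and 1 occurs in Ccr1l1.

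RefSeq (GRCm38.p6) gave a promoter window for 7 of the 8 genes. Letters of 6 motifs were searched on both strands of the 250 bases before each start, and the share of all 32851 windows with a match is given beside each motif. The 120 bases before the start are shown for Cxcr4 and Ackr3, which bind the same chemokine but moved apart after injury, for Ccrl2 and for Ccr1, the gene that differed with age in lesions. Capitals mark a match to TATAAA (12.4% of windows) in Cxcr4 and Ackr3 and to ACGTG, the core of the hypoxia response element (16.6%), in Ccrl2. The coordinates are chr1:128592300-128592419 (minus strand) for Cxcr4, chr1:90203860-90203979 (plus) for Ackr3, chr9:111057519-111057638 (minus, the first of the starts RefSeq lists) for Ccrl2 and chr9:123968693-123968812 (minus) for Ccr1.
Cxcr4: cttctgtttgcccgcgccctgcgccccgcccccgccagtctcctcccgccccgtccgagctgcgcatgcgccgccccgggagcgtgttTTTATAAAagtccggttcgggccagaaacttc
Ackr3: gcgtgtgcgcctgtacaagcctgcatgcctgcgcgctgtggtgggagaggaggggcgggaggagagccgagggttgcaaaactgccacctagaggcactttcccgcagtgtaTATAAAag
Ccrl2: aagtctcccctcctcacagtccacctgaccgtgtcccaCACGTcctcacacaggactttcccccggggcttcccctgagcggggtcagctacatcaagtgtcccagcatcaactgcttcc
Ccr1: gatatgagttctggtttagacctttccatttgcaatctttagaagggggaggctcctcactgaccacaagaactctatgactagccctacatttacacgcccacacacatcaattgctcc
The matches in Cxcr4 overlap each other, 1 on each strand, and begin 32 and 30 bases before the start, against 8 bases in Ackr3 and 82 in Ccrl2. The NF-kB letters GGGNNTTTC (3.72% of windows) were found outside the printed bases, 223 bases before the start of Cxcr4 and 229 before that of Ccrl2, and also 86 bases before that of Cxcr3. The window of Cxcr3 also held the PU.1 letters GAGGAAGT (2.44% of windows), 16 bases before the start. The C/EBP letters TTGCNNCAA (1.74% of windows) and the AP-1 letters TGANTCA (6.75% of windows) matched in none of the 7 genes. No motif matched in the window of Ccr1. The windows of Cxcr3 and Ackr1 lie mostly in annotated exons and are not shown. These matches describe letters only.

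The first question was how a lesion changed the receptors within each age. In young mice, 6 of the 8 receptors rose with injury and none fell, against 28.3% of all genes tested that rose and 26.3% that fell (edgeR quasi-likelihood test, adjusted p under 0.05). In middle-aged mice, the count was 6 higher and 1 lower, against 29.2% and 29.3% of all genes. The receptors that rose, Ccr1, Ccr7, Cxcr3, Cxcr4, Ackr1 and Ccrl2, were the same 6 at both ages. The median log2 fold change of the 8 was 2.42 in young and 3.06 in middle-aged mice, where the medians over all genes tested were 0.00054 and -0.032. In each age, every injured pool stood above every naïve pool for those 6 genes, as it did for 35.0% of all genes in young and 31.5% in middle-aged mice. Ccr1, Ccr7 and Cxcr3 had at most 5, 1 and 3 counts in any naïve pool and passed the filter only through lesion pools. They could hardly have come out lower, and the counts and medians of the 8 include them.

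**Figure D1:**
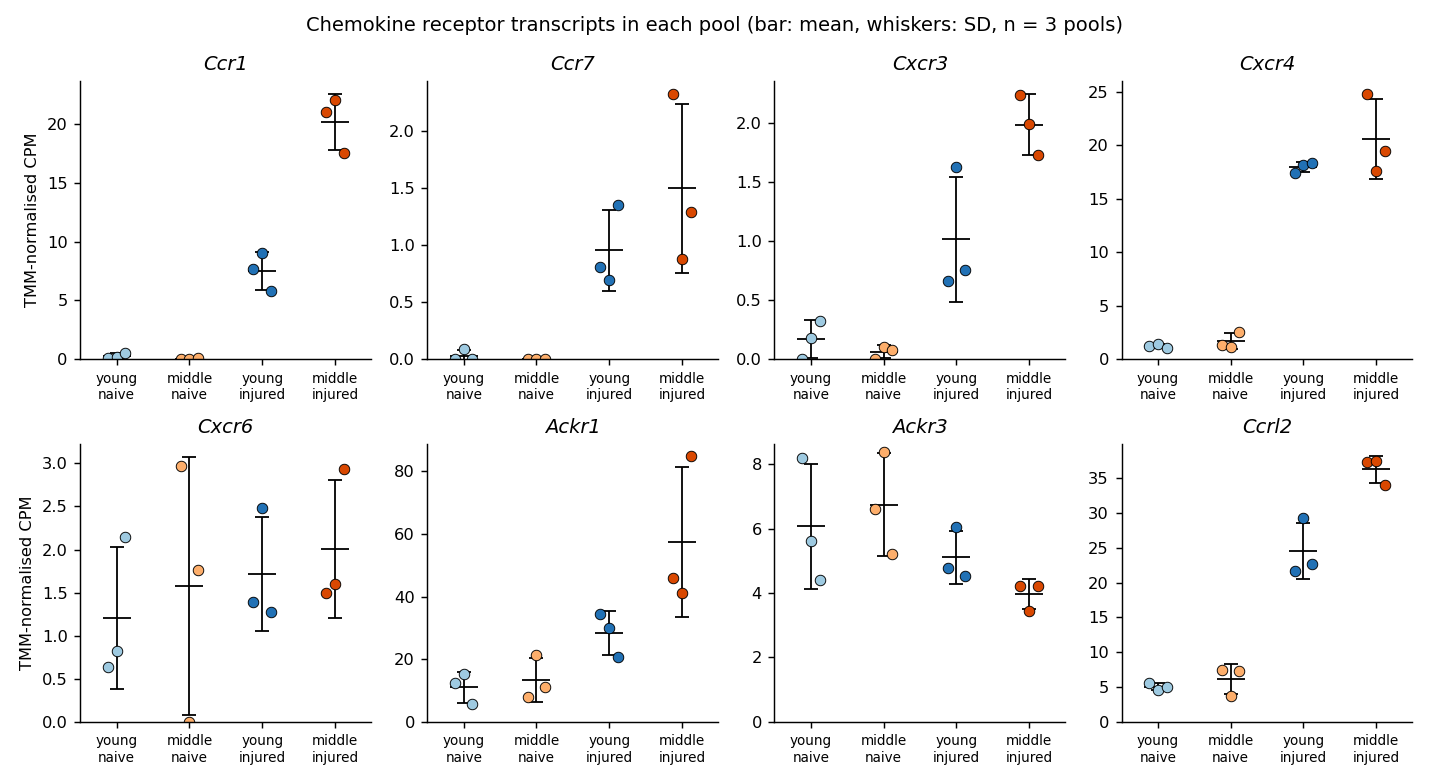
TMM-normalised CPM (vertical axes, each with its own scale from 0) of the 8 receptors in each pool of the 4 groups, with points for pools, horizontal bars for means and whiskers for the SD of 3 pools. Ccr1, Ccr7, Cxcr3, Cxcr4, Ackr1 and Ccrl2 are higher in every injured pool than in any naïve pool of the same age, whereas the pools of Cxcr6 overlap.

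Ccr1, a receptor of monocytes, macrophages and neutrophils for inflammatory CC chemokines, was near the floor without injury. It had 1, 2 and 5 counts in the young naïve pools and 0, 0 and 1 in the middle-aged naïve pools. The young injured pools held 7.63, 8.99 and 5.80 CPM (104, 116 and 77 counts), and the middle-aged injured pools 21.0, 22.04 and 17.5 CPM (253, 276 and 203 counts). All injured pools were far above all naïve pools, and the 2 injured groups did not overlap either. Over the summed counts, Ccr1 was 29.2-fold higher in young lesions, with a 95% counting interval of 14.6 to 68.3. In middle-aged mice the ratio was 657, but it rests on 1 naïve count and its interval runs from 118 to 25983. The fitted log2 fold changes were 4.802 ± 0.43 (SE, n = 3 pools per group, edgeR adjusted p = 3.66e-07) and 8.93 ± 0.55 (SE, n = 3, edgeR adjusted p = 7.36e-09). The second depends on the small count added by the fit.

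Cxcr4, the signalling receptor for Cxcl12 on leukocytes and neural progenitors, rose to like levels at both ages. Its naïve pools were at 1.18, 1.45 and 1.08 CPM in young and 1.34, 1.15 and 2.56 CPM in middle-aged mice. Injured pools were at 17.4, 18.1 and 18.4 CPM in young and 24.8, 17.6 and 19.4 CPM in middle-aged mice. The young lesions lay close together, and the middle-aged lesions overlapped them. Mean levels were 14.5-fold higher in young lesions (log2 fold change 3.84 ± 0.29, SE, n = 3, edgeR adjusted p = 5.95e-08) and 12.2-fold higher in middle-aged lesions (3.57 ± 0.27, SE, n = 3, edgeR adjusted p = 6.77e-08).

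Ackr3, the atypical receptor that takes up the same ligand Cxcl12, did not follow Cxcr4. It was at 8.20, 5.62 and 4.41 CPM in young naïve and 4.77, 6.05 and 4.52 CPM in young injured pools, which overlap (log2 fold change -0.25 ± 0.28, SE, n = 3, edgeR adjusted p = 0.464). In middle-aged mice it fell, from 6.62, 8.39 and 5.201 CPM to 4.23, 3.43 and 4.23 CPM. Every middle-aged injured pool was under every middle-aged naïve pool, as for 29.7% of all genes, and the log2 fold change was -0.76 ± 0.28 (SE, n = 3, edgeR adjusted p = 0.0312). This call was lost in 8 of 21 alternatives, with edgeR adjusted p from 0.0504 to 0.103, among them each one that left out 1 of the first and second middle-aged naïve pools or any middle-aged injured pool. Oligodendrocyte markers (6 of 6) and astrocyte markers (3 of 4) also fell with injury at both ages, against 26.3% and 29.3% of all genes tested. The part of these cells in the level of Ackr3 was not tested.

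The ligand shared by Cxcr4 and Ackr3 is Cxcl12. It averaged 55.6 and 50.8 CPM in young naïve and injured pools and 61.1 and 51.3 CPM in middle-aged ones. Young pools overlapped. In middle-aged mice, every injured pool (50.3 to 52.3 CPM) was under every naïve pool (57.9 to 64.8 CPM), as for 29.7% of all genes. Neither injury contrast passed the test (log2 fold change -0.13 ± 0.13 and -0.25 ± 0.13, SE, n = 3, edgeR adjusted p = 0.428 and 0.113).

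**Figure D2:**
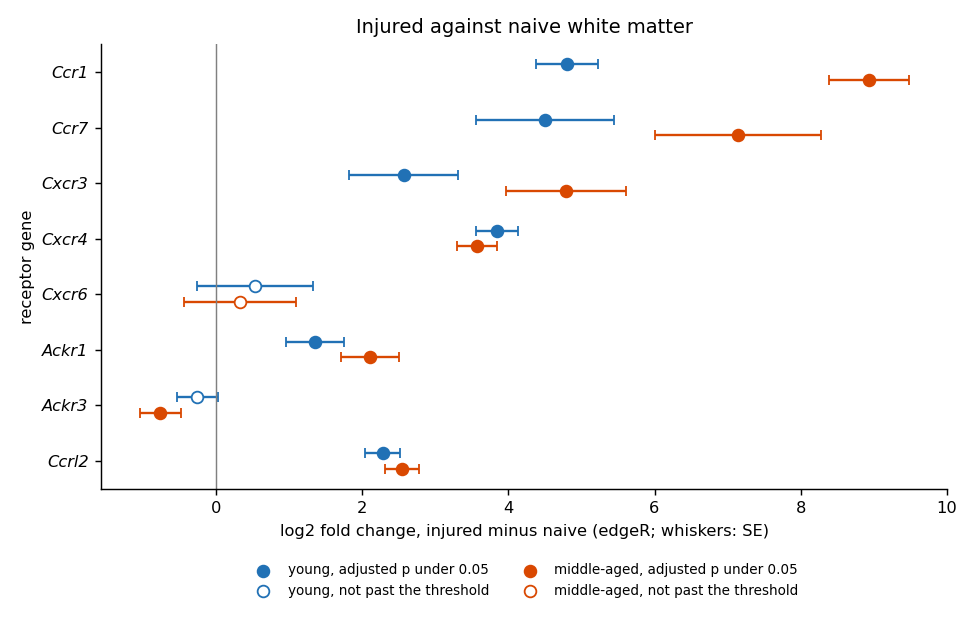
Log2 fold change of injured against naïve white matter (horizontal axis, whiskers for the SE of the edgeR fit, n = 3 pools per group) for each receptor in young and middle-aged mice. Filled points passed an adjusted p of 0.05: the same 6 receptors lie to the right of 0 at both ages, and Ackr3 lies to the left in middle-aged mice.

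Ackr1, the atypical receptor of venular endothelium and red blood cells that carries inflammatory chemokines across the vessel wall, already had counts without injury. Some of these may come from the exon bases shared with Cadm3. Naïve pools were at 12.3, 15.2 and 5.59 CPM in young and 7.87, 21.2 and 10.96 CPM in middle-aged mice. Young lesions held 34.4, 30.1 and 20.8 CPM, and middle-aged lesions 46.1, 41.1 and 84.9 CPM. The third middle-aged lesion pool was far above the other 2. The log2 fold change was 1.35 ± 0.40 (SE, n = 3, edgeR adjusted p = 0.0100) in young and 2.11 ± 0.40 (SE, n = 3, edgeR adjusted p = 0.000399) in middle-aged mice. Without the third middle-aged lesion pool the latter was 1.72 (edgeR adjusted p = 0.00258).

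Markers of venular endothelium were set beside Ackr1, though bulk tissue does not show which cells its counts came from. All 4 venular endothelial markers rose at both ages, against 28.3% and 29.2% of all genes tested. Their summed level went from 29.1 to 44.3 CPM in naïve pools to 94.5 to 143 CPM in injured pools. Selp and Sele had at most 1 and 5 counts in any naïve pool. Both passed the filter through lesion pools and could hardly have come out lower. Selp, the adhesion molecule P-selectin, was singled out after its values were seen. Its young lesion pools held 3.08, 2.33 and 0.904 CPM and its middle-aged lesion pools 6.64, 5.11 and 14.9 CPM. The order of the lesion pools within each age was that of Ackr1 for Selp and Sele. It was another for Vcam1 in young lesions and for Vwf in middle-aged lesions, where Vwf stood at 39.6, 32.3 and 33.3 CPM and the third pool was not raised. The 5 erythroid markers summed to 0.249, 0.160 and 11.4 CPM in the middle-aged lesion pools, and to at most 1.98 CPM in any other pool. Hba-a1 alone made up 10.96 CPM of the 11.4, and the other 4 markers (Hba-a2, Hbb-bs, Hbb-bt and Alas2) had at most 2 counts each in any middle-aged lesion pool. Cadm3, the gene that shares exon bases with Ackr1, went the other way and fell with injury (log2 fold change -1.30 in young and -1.66 in middle-aged mice, edgeR adjusted p = 0.000423 and 4.91e-05). Its naïve pools held 92.4, 82.9 and 44.7 CPM in young and 61.3, 103.8 and 89.1 CPM in middle-aged mice. The middle-aged naïve order was that of Ackr1, and the third young naïve pool was lowest for both genes. In lesions, the order of Cadm3 was another at both ages. The part of vessels, blood and shared reads in the level of Ackr1 was not tested.

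Ccrl2, an atypical receptor of activated myeloid cells and endothelium that presents chemerin, rose at both ages. Naïve pools were at 5.56, 4.62 and 4.95 CPM in young and 7.49, 3.67 and 7.36 CPM in middle-aged mice. Lesion pools were at 21.7, 29.2 and 22.7 CPM in young and 37.4, 37.5 and 34.02 CPM in middle-aged mice, and no injured pool came near a naïve one. The means were 4.87-fold and 5.88-fold higher with injury (log2 fold change 2.28 ± 0.24 and 2.54 ± 0.24, SE, n = 3, edgeR adjusted p = 1.81e-06 and 4.63e-07). Rarres2, which encodes chemerin, averaged 5.56 and 5.42 CPM in young and 9.23 and 5.72 CPM in middle-aged naïve and injured pools and passed the test at neither age (edgeR adjusted p = 0.956 and 0.140). Its middle-aged naïve pools ranged from 5.18 to 16.9 CPM. Its injury effect in middle-aged mice was -0.96 without the first of them (edgeR adjusted p = 0.0382) and 0.09 without the second (edgeR adjusted p = 0.778).

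Cxcr3, a receptor of activated T cells and NK cells, was detected at low counts. Naïve pools had 0, 2 and 3 counts in young and 0, 1 and 1 in middle-aged mice. Young lesion pools had 9, 21 and 10 counts (0.661, 1.63 and 0.753 CPM), and middle-aged lesion pools 27, 25 and 20 counts (2.24, 1.996 and 1.73 CPM). The summed counts gave a ratio of 6.29 in young mice (95% counting interval 2.48 to 20.4) and of 32.3 in middle-aged mice (8.63 to 272, from 2 naïve counts). Both contrasts passed the test (edgeR adjusted p = 0.00910 and 0.000173). The call in young mice was lost without the second young lesion pool (edgeR adjusted p = 0.0557).

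Ccr7, which guides dendritic cells and T cells towards lymphatics, was rarer still. It had 0, 1 and 0 counts in young naïve pools, 0 in each middle-aged naïve pool, 11, 9 and 18 in young lesion pools and 28, 11 and 15 in middle-aged lesion pools. The lesion pools stood at 0.698 to 1.36 CPM in young and 0.878 to 2.32 CPM in middle-aged mice. The ratio was 29.9 in young mice (95% counting interval 5.05 to 1211, from 1 naïve count), and in middle-aged mice Ccr7 was at least 16.2-fold higher, against 3 counts over the naïve group. Both contrasts passed the test (edgeR adjusted p = 0.00144 and 0.000157).

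Cxcr6, a receptor of effector and resident memory T cells, showed no detectable injury effect. Young pools held 0.638, 0.816 and 2.15 CPM without and 1.40, 2.48 and 1.28 CPM with injury. Middle-aged pools held 2.98, 0 and 1.76 CPM without and 1.49, 1.60 and 2.94 CPM with injury. The groups overlap at both ages, and the second middle-aged naïve pool had no read. The log2 fold changes were 0.53 ± 0.79 and 0.33 ± 0.77 (SE, n = 3, edgeR adjusted p = 0.596 and 0.734), so that with such errors a change of the size seen for Ackr1 could have been missed.

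The T cell markers that go with Cxcr3, Ccr7 and Cxcr6 were sparse too. Of 9 such markers, 2 passed the filter, Cd4 and Lck. Both rose at both ages, against 28.3% and 29.2% of all genes tested. With at most 3 counts in any naïve pool, they passed the filter through lesion pools and could hardly have come out lower. The 9 summed to 0.0800 to 1.26 CPM in naïve pools, 3.39 to 5.19 CPM in young lesions and 5.11 to 7.97 CPM in middle-aged lesions. Cd3e, a defining subunit of the T cell receptor complex, had at most 5 counts in any pool, and no NK cell marker of 5 was tested. Dendritic cell markers were mixed, with 2 of 5 tested higher and 2 lower in young and 2 higher and 1 lower in middle-aged mice. Among all genes tested, 28.3% were higher and 26.3% lower in young and 29.2% higher and 29.3% lower in middle-aged mice. The 2 higher markers had at most 6 counts in any naïve pool and passed the filter through lesion pools. The part of these cells in the 3 receptors was not tested.

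Taking both ages as strata, a 2-sided exact permutation test of mean log2 CPM gave p = 0.005, the smallest that its 400 arrangements allow, for Ccr1, Ccr7, Cxcr3, Cxcr4, Ackr1 and Ccrl2. The same exact test gave p = 0.045 for Ackr3 (a fall of 0.46 on the log2 scale) and p = 0.295 for Cxcr6. These p-values of the 8 receptors are not adjusted. Within a single age, the exact test of 3 pools against 3 cannot go below p = 0.1.

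The second question was how age changed the receptors. In naïve white matter, 0 of the 8 receptors differed with age, against 3.8% of all genes tested (edgeR, adjusted p under 0.05), and 1, Ccr1, had an unadjusted p under 0.05. That value rests on 8 counts in the young and 1 in the middle-aged group (log2 fold change -2.69 ± 0.99, SE, n = 3, edgeR adjusted p = 0.159). DESeq2 called none of the 8 either. Ccr1, Ccr7 and Cxcr3 passed the filter only through lesion pools. Their summed naïve counts were 8 and 1, 1 and 0, and 5 and 2 in young and middle-aged mice, which leaves little room for a call. With only the naïve pools compared, 5 receptors were tested and 0 passed (edgeR, adjusted p under 0.05). Ackr1, Ackr3, Ccrl2 and Cxcr4 differed by between 0.14 and 0.47 on the log2 scale, and their pools overlap.

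In lesions, 1 receptor passed the test with age. Ccr1 was 2.70-fold higher in middle-aged than in young lesions (log2 fold change 1.43 ± 0.28, SE, n = 3, edgeR adjusted p = 0.0237), where 0.24% of all genes tested were higher. The direction was the same in 9 of 9 pairs of pools. The call was lost when any young lesion pool, or the first or second middle-aged lesion pool, was left out (edgeR adjusted p from 0.0792 to 0.170, log2 fold change from 1.29 to 1.59), and it held without the third (edgeR adjusted p = 0.0492).

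The other receptors did not pass. Ackr1 (log2 fold change 1.01 ± 0.38, edgeR adjusted p = 0.324), Ccrl2 (0.56 ± 0.22, edgeR adjusted p = 0.333) and Cxcr3 (0.97 ± 0.56, edgeR adjusted p = 0.685) had every middle-aged lesion pool above every young one (SE, n = 3). With Ccr1, that makes 4 of 8 receptors without overlap, against 11.1% of all genes tested. Ackr3 had every middle-aged lesion pool under every young one, as 12.2% of genes did (-0.37 ± 0.28, edgeR adjusted p = 0.853). The difference in Ackr1 was 0.63 without the third middle-aged lesion pool. Cxcr4 (0.20 ± 0.23), Ccr7 (0.65 ± 0.56) and Cxcr6 (0.22 ± 0.75) overlapped between the ages.

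**Figure D3:**
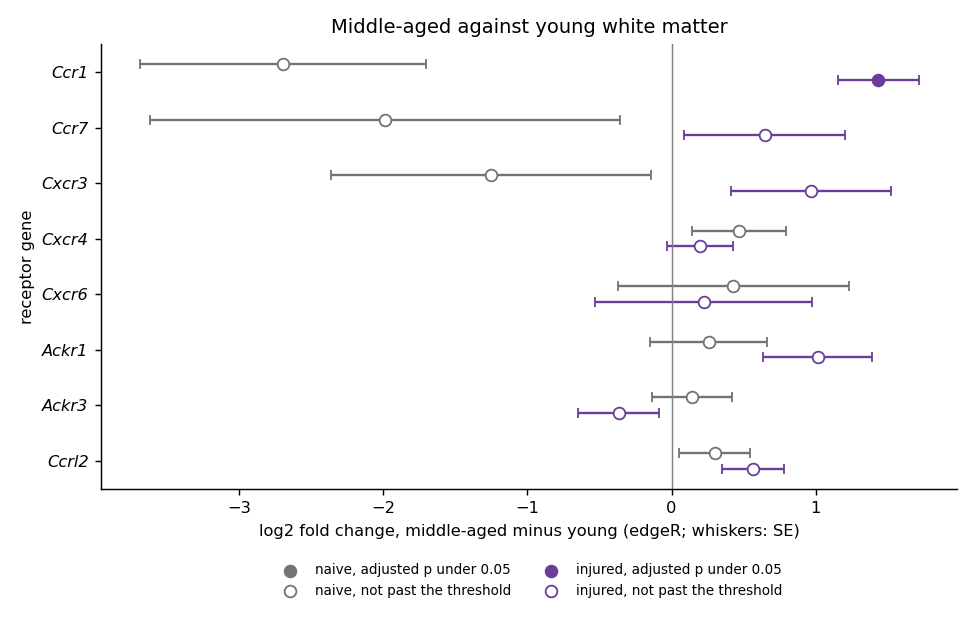
Log2 fold change of middle-aged against young white matter (horizontal axis, whiskers for the SE of the edgeR fit, n = 3 pools per group) for each receptor in naïve and in injured tissue. The single filled point, past an adjusted p of 0.05, is Ccr1 in lesions at 1.43.

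Whether injury acted differently at the 2 ages was tested as the difference of the injury effects. None of the 8 receptors passed (edgeR, adjusted p under 0.05), against 0.139% of all genes, and 1, Ccr1, had an unadjusted p under 0.05. Its injury effect was 4.13 ± 1.02 larger on the log2 scale in middle-aged mice (SE, n = 3, edgeR adjusted p = 0.137), a value that rests on the 8 and 1 naïve counts. For Cxcr4 the difference was -0.27 ± 0.39 and for Ccrl2 0.26 ± 0.33 (SE, n = 3).

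Beside the age difference of Ccr1, pan-myeloid markers did not pass in lesions (0 of 7), with summed levels of 1612 to 1648 CPM in young and 1697 to 2223 CPM in middle-aged lesions. Of the 5 monocyte markers, F10 passed (log2 fold change 1.31, edgeR adjusted p = 0.0397), and the summed level was 83.3 to 125 CPM in young and 182 to 232 CPM in middle-aged lesions. Ccr2, the monocyte receptor left out of the 8, did not pass (1.02 ± 0.25, SE, n = 3, edgeR adjusted p = 0.0821). Of the oligodendrocyte markers, 5 of 6 fell with age in lesions, against 0.908% of all genes tested. Of the 4 fibroblast markers, the collagen genes Col1a1 (log2 fold change -1.92, edgeR adjusted p = 0.0107) and Col1a2 (-1.46, edgeR adjusted p = 0.0133) fell too, and the 4 summed to 634 to 1025 CPM in young and 288 to 556 CPM in middle-aged lesions. The part of these cells in the level of Ccr1 was not tested.

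Levels were compared between receptors per kilobase of exon. In naïve mice, Ackr1 came first at 7.86 ± 3.52 (SD, n = 3) CPM per kb in young and 9.50 ± 4.96 (SD, n = 3) in middle-aged mice, above every other receptor in all pools. Its level includes any reads counted in the 361 of 1405 exon bases that it shares with Cadm3. Cadm3 averaged 73.3 CPM in young and 84.7 CPM in middle-aged naïve pools. The part of such reads in the rank of Ackr1 was not tested. Ccrl2 and Ackr3 followed, at 1.94 and 1.81 CPM per kb in young mice, and did not differ beyond the spread of their pools. Cxcr4 and Cxcr6 came next with overlapping pools, and Cxcr3, Ccr1 and Ccr7 were last. After injury the order changed. In young lesions it was Ackr1 (20.2 ± 4.94), then Cxcr4 (9.94 ± 0.28) and Ccrl2 (9.45 ± 1.57), which overlap, then Ccr1 (2.64 ± 0.57), Ackr3 (1.53 ± 0.24) and the overlapping Cxcr6, Cxcr3 and Ccr7 (SD, n = 3). In middle-aged lesions Ackr1 (40.8 ± 17.05) stood above Ccrl2 (13.96 ± 0.75) and Cxcr4 (11.4 ± 2.08), which overlap, and Ccr1 (7.13 ± 0.83) came next. Ackr3, Cxcr3, Cxcr6 and Ccr7 closed the order between 1.18 and 0.758 CPM per kb without a gap between neighbours.

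**Figure D4:**
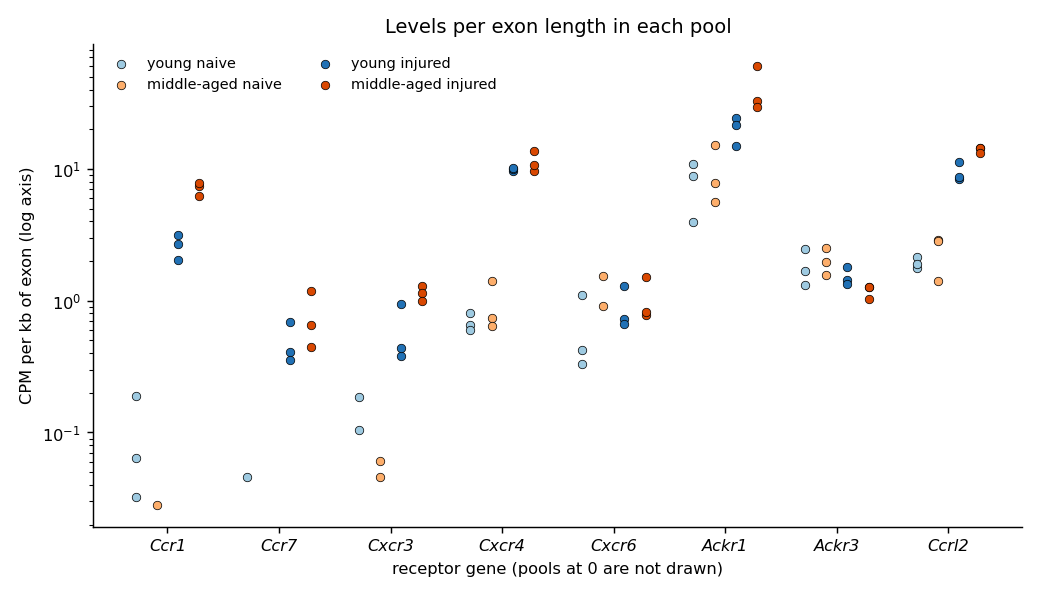
CPM per kilobase of exon (vertical axis, log scale) of each receptor in each pool, coloured by group, with pools at 0 left out. Ackr1 is the highest receptor in every group, and after injury Cxcr4 and Ccr1 stand above Ackr3, which they lie under in naïve pools. The part of reads shared with Cadm3 in the level of Ackr1 was not tested.

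The ligands were taken from lists of known receptor and ligand pairs. All 7 ligands listed for Ccr1 rose with injury at both ages, with a median log2 fold change of 4.65 in young and 4.75 in middle-aged mice when Ccl8, at 0 counts in all naïve pools, was held at its bound (5.89 and 5.25 as fitted). Of all genes tested, 28.3% rose with injury in young and 29.2% in middle-aged mice. In lesions, 3 of the 7 ligands were also higher in middle-aged mice, against 0.24% of all genes tested. They were Ccl6 (186 against 518 CPM, log2 fold change 1.47 ± 0.24, edgeR adjusted p = 0.00921), Ccl7 (21.3 against 85.5 CPM, 2.003 ± 0.24, edgeR adjusted p = 0.00142) and Ccl9 (116 against 329 CPM, 1.504 ± 0.22, edgeR adjusted p = 0.00405, SE, n = 3). The call of Ccl6 was lost without the second young, the third young or the second middle-aged lesion pool (edgeR adjusted p from 0.0533 to 0.0763). Ccl3, Ccl4, Ccl5 and Ccl8 did not pass with age in lesions, at 29.6 and 41.8, 17.4 and 23.6, 1.80 and 1.91, and 0.627 and 2.46 CPM in young and middle-aged lesions.

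Ligands bound by Ackr1 overlap with those of Ccr1. Of 5 listed, 4 were tested and all 4 (Ccl2, Ccl5, Ccl7 and Cxcl1) rose with injury at both ages, against 28.3% and 29.2% of all genes tested. The call of Cxcl1 in young mice was lost when the first or the third young naïve pool, or the second or the third young lesion pool, was left out (edgeR adjusted p from 0.0573 to 0.0945). Ccl2, the main monocyte attractant, averaged 62.0 CPM in young and 169 CPM in middle-aged lesions (log2 fold change 1.45 ± 0.28, SE, n = 3, edgeR adjusted p = 0.0205), a call lost when any single lesion pool was left out (edgeR adjusted p from 0.0545 to 0.159). Cxcl16, the known ligand of Cxcr6, rose from 0.774 to 15.2 CPM in young and from 2.40 to 20.6 CPM in middle-aged mice (edgeR, log2 fold change 4.25 ± 0.50 and 3.14 ± 0.44, SE, n = 3), while Cxcr6 itself had no detectable effect.

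Cxcl10, the one ligand of Cxcr3 that passed the filter, differed between the ages already without injury. It averaged 0.317 CPM in young naïve and 13.8 CPM in middle-aged naïve pools (log2 fold change 5.51 ± 0.95, SE, n = 3, edgeR adjusted p = 0.00522). It rose with injury in young mice, to 20.5 CPM (6.08 ± 0.94), and was at 12.8 CPM in middle-aged lesions (-0.10 ± 0.61 against naïve, SE, n = 3, edgeR adjusted p = 0.895). The middle-aged naïve pools lay far apart, from 3.76 to 29.4 CPM. Without the first of them, the highest, the injury effect in middle-aged mice was 1.11 ± 0.54 (SE, edgeR adjusted p = 0.0949), and the age effect in naïve mice was 4.30 ± 0.79 (SE, edgeR adjusted p = 0.00831). None of the 3 ligands of Ccr7 found in the table passed the filter, and together they stayed at or under 0.220 CPM in every pool.

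**Figure D5:**
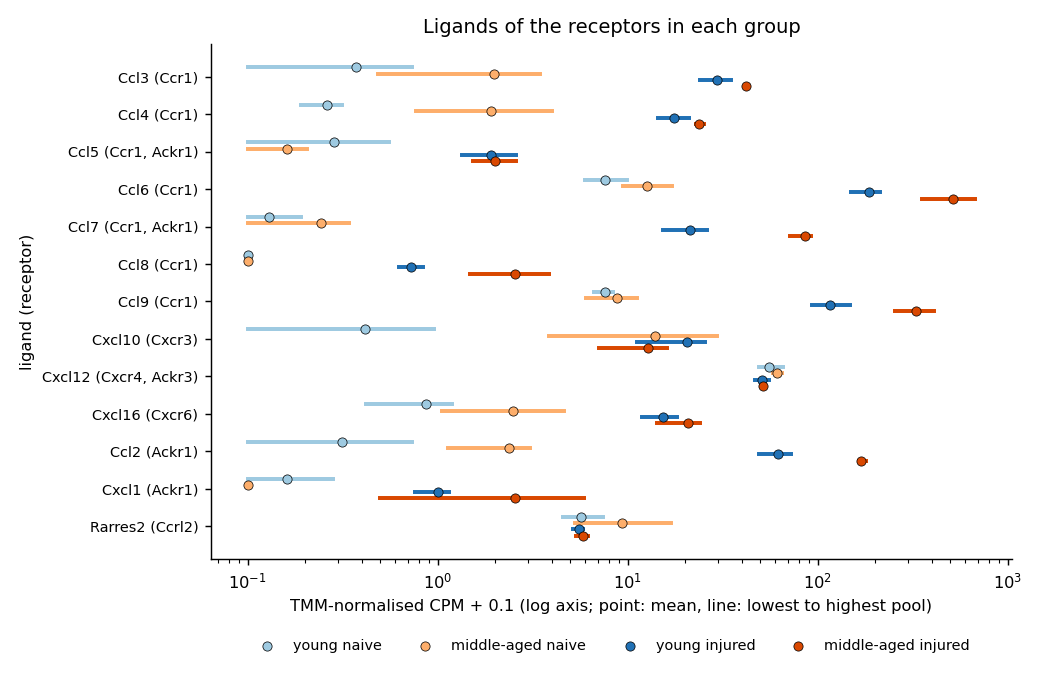
TMM-normalised CPM plus 0.1 (horizontal axis, log scale) of the ligands that passed the filter, with the receptor in parentheses, points for group means and lines from the lowest to the highest of 3 pools. Ccl2, Ccl3, Ccl4, Ccl6, Ccl7, Ccl8 and Ccl9 are highest in middle-aged lesions without overlap with young lesions. Every middle-aged lesion pool stood above every young one for 11.1% of all genes tested. Ccl3, Ccl4 and Ccl8 did not pass the test with age in lesions. Cxcl12 lies between 46.7 and 66.0 CPM in every pool, and Rarres2 reaches 16.9 CPM in one middle-aged naïve pool.

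Of 14 other typical receptors, 6 passed the filter. With injury, 4 rose in young and 5 in middle-aged mice, against 28.3% and 29.2% of all genes tested, and none fell. Cx3cr1 and Xcr1 rose at both ages, and Cxcr2 passed in middle-aged mice. Cx3cr1, the fractalkine receptor of microglia, averaged 113 CPM in young and 87.5 CPM in middle-aged lesions and did not pass with age there (edgeR adjusted p = 0.401). Ackr4, an atypical receptor for the Ccr7 ligands, passed at neither age with injury (edgeR adjusted p = 0.329 and 0.728).

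Of 18 signalling partners of chemokine receptors, 16 rose with injury at both ages and none fell, with medians of 0.94 and 1.15 on the log2 scale. Among all genes tested, 28.3% rose in young and 29.2% in middle-aged mice. Gnai2 and Gnai3, inhibitory G protein alpha subunits, rose by 0.88 and 0.97 on the log2 scale in young and by 0.81 and 1.13 in middle-aged mice. Grk2, a kinase that shuts receptors off, rose by 0.92 and 1.09 (edgeR adjusted p = 0.00134 and 0.000327). Gnb1, a G protein beta subunit, passed at neither age (-0.20 and -0.05).

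As a description, the genes whose log2 CPM followed each receptor most closely over the 12 pools were named among 13085 genes. Pools of 1 group share treatment and age, so these coefficients mostly carry the group differences. Ccr1 was followed by Plekho2 (Pearson's r = 0.995), Gda and Litaf, and Cxcr4 by Apobec1 (0.997), Unc13a and Stra6l. For Ccrl2 they were Ripk1 (0.991), Ptk2b and Gpr137b-ps, and for Ackr1 Atf4 (0.955), C1qbp and Wtap. Cxcr3 went with Fabp5 (0.976), Rgs16 and Dgkd, and Ccr7 with Vps35 (0.987), Sh3glb1 and Rasa1. Ackr3 went with the neuronal genes Gria1 (0.921) and Scn2b, and with Rabep1. Cxcr6 went with Gm43788 (0.970), Nhlrc2 and Gm37906.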

How the data were processed

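RNA was measured in 12 pools, 3 in each of 4 groups, with groups and replicate numbers taken from the labels and ages from the study's methods. Per the methods and the submitters' processing notes, the authors checked reads with FastQC 0.11.4, amplified RNA at library building, aligned them by TopHat 2.0.10 (bowtie 1.1.2) against GRCm38, and deposited a raw featureCounts count per gene. The annotation release, strand setting and handling of shared reads are not given in the sources used here. Since strand is not stated, reads of Cxcr6 and of Fyco1 on the opposite strand may not be separable.

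The deposited counts were analysed with edgeR 4.0.16 in R 4.3.3 (TMM factors, filterByExpr, quasi-likelihood test, 1 coefficient per group, all 12 pools). The study's methods name DESeq2, which was run as an alternative (version 1.42.0). The filter used all 4 groups. A gene near 0 in naïve pools could thus pass through lesion pools and hardly be called lower with injury. Benjamini-Hochberg adjustment covered 15866 genes, and calls needed an adjusted p under 0.05. Standard errors were taken as log2 fold change over root F. For log2 CPM, the prior count was 2. The labels name no batch. Exact permutation tests were 2-sided. Counting intervals are 95% exact (Clopper-Pearson) and floors are 3 counts. Since reads were amplified, both cover counting error only. Totals ranged from 9834447 to 12807437 counts. Symbols were found for 45143 of 46078 identifiers.

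The 8 receptors, the gene lists and the marker lists were chosen with earlier results of these data known. Named beside the receptors are their tested ligands, the 4 most abundant other receptors and signalling partners each, marker lists by count and summed level, and the 3 genes most alike in pattern. Genes named outside this rule are Selp, Sele, Vcam1, Vwf, Col1a1, Col1a2, Hba-a1 and the other erythroid markers, Cd4, Lck, Cd3e, F10, Xcr1, Cxcr2 and the neighbours Cadm3, Fyco1, Ccr3 and Ccr1l1, singled out after values were seen. The result for 1 gene is not reported here.

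Counts were simulated with 86 genes changed by 1 and 114 by 2 on the log2 scale in 1 group, and all others at a common mean. On these, injury in young mice recovered 40.7% of genes changed by 1 and 85.1% of those changed by 2, with 5.71% of calls false (15536 genes). Age in lesions recovered 53.5% and 84.2%, with 3.4% of calls false (15589 genes). In the data, 54.6% of genes were called for injury in young mice, so the simulated shares need not hold for that contrast. Alternatives were other scalings, DESeq2, other filters, a replicate block, only the pools compared, and each pool left out, which for single ligands was added after seeing the data.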

Additional observations from a re-analysis of the deposited data

How the results depend on the processing

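The log2 fold changes of the 8 receptors in 5 contrasts were recomputed under 817 alternatives in all, of which 784 kept direction and side of the threshold. Direction turned in 14, each with 1 pool left out and each in a contrast that did not pass the test. Over single pools left out, the log2 fold change of Ackr3 ran from -0.43 to 0.026 for injury in young mice (turned without the first young naïve pool) and from -0.051 to 0.42 for age in naïve mice (the third young or second middle-aged naïve pool). That of Ackr1 ran from -0.24 to 0.56 for age in naïve mice (the same 2 pools). For Cxcr6 it ran from -0.23 to 1.102 for injury in middle-aged mice (-0.23 without the second middle-aged naïve and -0.04 without the third middle-aged lesion pool), from -0.34 to 1.12 for age in naïve mice (the first middle-aged naïve pool), from -0.13 to 0.58 for age in lesions (the third middle-aged lesion pool) and from -0.90 to 0.57 for the difference (the first or second young naïve, first middle-aged naïve or second young lesion pool). For Cxcr4 the difference ran from -0.47 to 0.19 (the third middle-aged naïve pool). For Ccr7, age in naïve mice had no count left without the second young naïve pool. With injury, the count of receptors that passed was 5 to 6 in young and 6 to 7 in middle-aged mice when single pools were left out. With age in lesions it was 0 to 1 when single pools were left out, 2 with no filter on low counts (Ackr1 added, edgeR adjusted p = 0.0112) and 3 with only the pools compared (Ackr1 and Ccrl2 added, edgeR adjusted p = 0.0419 and 0.0273). For the difference of injury effects it was 1 with no filter (Ccr1, edgeR adjusted p = 0.0203). The cause was not tested. Injury in young mice gave 4 with only its pools compared and 4 with a minimum count of 30, both of which left Ccr7 and Cxcr3 untested.

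With a replicate block in the model, 6, 7, 0, 1 and 0 receptors passed, the same counts as without the block in each contrast, young injury first and the difference last. The deviations of same-numbered pools from their group means correlated at r from -0.113 to 0.153. With 3 pools per group, this cannot tell whether same-numbered pools shared a batch. Over all genes, age in lesions gave 182 calls, against 437 with no filter, 818 with only the pools compared, 446 with DESeq2 and 45 to 410 when single pools were left out. Age in naïve mice gave 603, against 1153, 71, 1085 and 261 to 800. The difference gave 22, against 329 with no filter, 240 with DESeq2 and 3 to 56. Of the list genes, 6 were called for age in lesions, against 2 to 7 when single pools were left out, and 8 for age in naïve mice, against 3 to 7 and 0 with only the pools compared. For the difference, 0 list genes were called, against 7 with no filter and 5 with DESeq2. Naïve counts under 10 per group limit the folds of Ccr1, Ccr7 and Cxcr3.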
